A study of Mus musculus with 6 samples.

Results

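The surface proteins that immunologists use to tell one stage of B-cell development from the next were read at the mRNA level in pre-B cells from normal, premalignant and lymphoma-bearing mice. The 9 genes were listed by symbol, by a rule that uses no measured value but was set with earlier results of these data known, and found in the count files through their Ensembl identifiers; they are 9 of 37991 genes counted. They are Kit (CD117), Spn (CD43), Cd93 (AA4.1), Bst1 (BP-3, CD157), Il2ra (CD25), Cd2, Ms4a1 (CD20), Cd24a (heat-stable antigen, CD24) and Ptprc (CD45). All 9 had enough counts to be tested.

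Polyadenylated RNA was sequenced from cells sorted from bone marrow of C57BL/6 mice on high B220, low IgM and low IgD, a gate that holds pro-B and pre-B cells together. The labels give this gate for every group, but the study's methods describe the malignant cells as B220+ and negative for IgM and IgD, so a difference of gate and malignancy cannot be told apart. The wild-type group came from littermates aged 4 to 6 weeks without the transgene, the premalignant group from heterozygous Eμ-Myc mice of the same age, and the malignant group from heterozygous Eμ-Myc mice taken at 10 to 20 weeks, once they had spontaneous lymphoma. Each group had 2 libraries, from individual animals, so each malignant library stands for 1 lymphoma. The Eμ enhancer of the immunoglobulin heavy chain locus drives the Myc transgene in B-lineage cells, so Myc was raised throughout that lineage and not at 1 chosen stage.

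In mouse bone marrow a B-cell precursor passes from the pro-B stage, when the heavy chain gene is rearranged, through dividing large pre-B cells, which carry the surrogate light chain, to resting small pre-B cells that rearrange a light chain gene, and then to immature B cells with surface IgM. Kit and CD43 mark the pro-B stage, BP-3 and AA4.1 are carried by early precursors, AA4.1 up to the transitional B cell, CD25 replaces Kit at the pre-B stage, CD2 appears among pre-B cells and stays, CD20 comes late, and CD24 and CD45 are present throughout. Surface protein can be set apart from mRNA by turnover, shedding and splicing, and only mRNA was measured here.

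For 3 of the genes, sequence helps in reading the values. The promoters of Il2ra and Kit are shown because their mRNAs fell furthest of the 9; each is the 250 bases before the RefSeq gene start in GRCm38.p6, in lower case, with the only match to the motifs searched in capitals. Il2ra lies on the plus strand at chr2:11642542-11642791 and its capitals mark GGGAAT followed by any base and CCC, an NF-κB-type motif, 201 bases before the start; on either strand this motif is in 40 of 27025 such promoters (0.148%). Kit lies on the plus strand at chr5:75574737-75574986 and its capitals mark GGGCGG, a GC box, 98 bases before the start, which is in 32.9% of promoters. The Kit window is 70.8% G and C and the Il2ra window 42.4%.
Il2ra promoter: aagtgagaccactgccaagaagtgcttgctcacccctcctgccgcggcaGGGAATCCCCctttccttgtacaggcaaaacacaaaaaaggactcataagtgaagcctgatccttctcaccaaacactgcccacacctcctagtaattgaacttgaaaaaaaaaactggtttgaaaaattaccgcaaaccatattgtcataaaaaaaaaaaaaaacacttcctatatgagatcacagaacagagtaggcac
Kit promoter: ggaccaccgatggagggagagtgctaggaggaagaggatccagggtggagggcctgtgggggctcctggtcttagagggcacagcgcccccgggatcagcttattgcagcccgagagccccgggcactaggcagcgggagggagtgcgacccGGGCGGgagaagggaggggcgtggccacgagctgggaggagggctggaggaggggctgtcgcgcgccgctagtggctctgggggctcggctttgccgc
The E-box motifs CACGTG (in 6.05% of promoters on either strand) and CAGGTG (17.1%) and, chosen after the sequences had been read, TGTGGT (14.2%) and AGATAA (10.3%) had no match in these windows or in those of Ptprc and Spn; the windows of Cd24a, Cd93, Bst1, Ms4a1 and Cd2 were not used here. The GC box and the NF-κB-type motif were added after the first motifs gave no match. A match is a run of letters and says nothing on binding in these cells.

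The coding sequence of Cd24a is shown because much of this gene has a second copy in the genome. It is the 231-base coding sequence of the gene at chr10:43298975-43304068 on the plus strand of NCBIM37, with capitals on the 195 bases covered by any 50-base window of the transcript that also occurs letter for letter elsewhere. Of 1764 such windows, 373 (21.1%) do so, all of them within the span of Hs6st3 on chromosome 14, and 6 also on chromosome 3.
Cd24a coding sequence: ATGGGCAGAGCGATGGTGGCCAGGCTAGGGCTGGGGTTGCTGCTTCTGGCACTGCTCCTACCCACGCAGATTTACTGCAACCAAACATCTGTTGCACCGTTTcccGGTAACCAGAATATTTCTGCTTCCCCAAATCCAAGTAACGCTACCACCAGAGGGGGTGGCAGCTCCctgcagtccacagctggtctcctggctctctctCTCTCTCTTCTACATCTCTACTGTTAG
Reads of 50 bases from the capital stretches fit both places, so the Cd24a count depends on how the counting treated them and is uncertain. The corresponding share of windows within exons was 19.8% for Cd24a, 2.47% for Il2ra and 1.54% for Cd93, and the other 6 genes had none. Bst1 shares 99 bases of exon with Fbxl5, which lies on the opposite strand, and the library kit does not keep the strand.

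The libraries held 30031100 to 53453055 counts on genes, and 3 counts, taken as the lowest level detected, correspond to 0.0526 to 0.108 CPM, which are counts scaled to a common library total. Within each group replicate 1 was the deeper library. Replicates were closest in the premalignant group and furthest apart in the malignant group, where the SD across genes of the log2 difference between both libraries was 0.71, against 0.33 in premalignant and 0.44 in wild type. Malignant replicate 1 held 327 CPM of Y-linked transcripts and every other library 1.25 CPM or less, so the malignant libraries differ in Y-linked transcripts, and the wild-type and premalignant mice were female by the study's methods. Without malignant replicate 1, Kit, Cd93, Bst1, Il2ra, Cd2 and Ptprc were called in malignant vs wild type. Age and malignancy cannot be told apart. The sorted cells carried the B-lineage identity genes Cd79a, Cd79b, Pax5, Ebf1, Blk and Vpreb3 at a summed 3764 to 4495 CPM in wild type, 2247 to 2385 in premalignant and 2141 to 2204 in malignant cells. Calls rest on a quasi-likelihood fit in edgeR over 16683 genes, with p-values adjusted by the Benjamini-Hochberg method; a gene was called where the FDR was 0.1 or less and the log2 fold change was 0.5 or more in either direction, and every adjusted p below comes from that fit. All 6 identity genes were called lower than in wild type in premalignant (median log2 fold change -0.83) and malignant cells (-0.89). Of all genes tested, 20.3% and 24.3% were called lower in these groups. In such bulk samples, fewer cells of a type and less RNA per cell cannot be told apart.

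**Figure D1:**
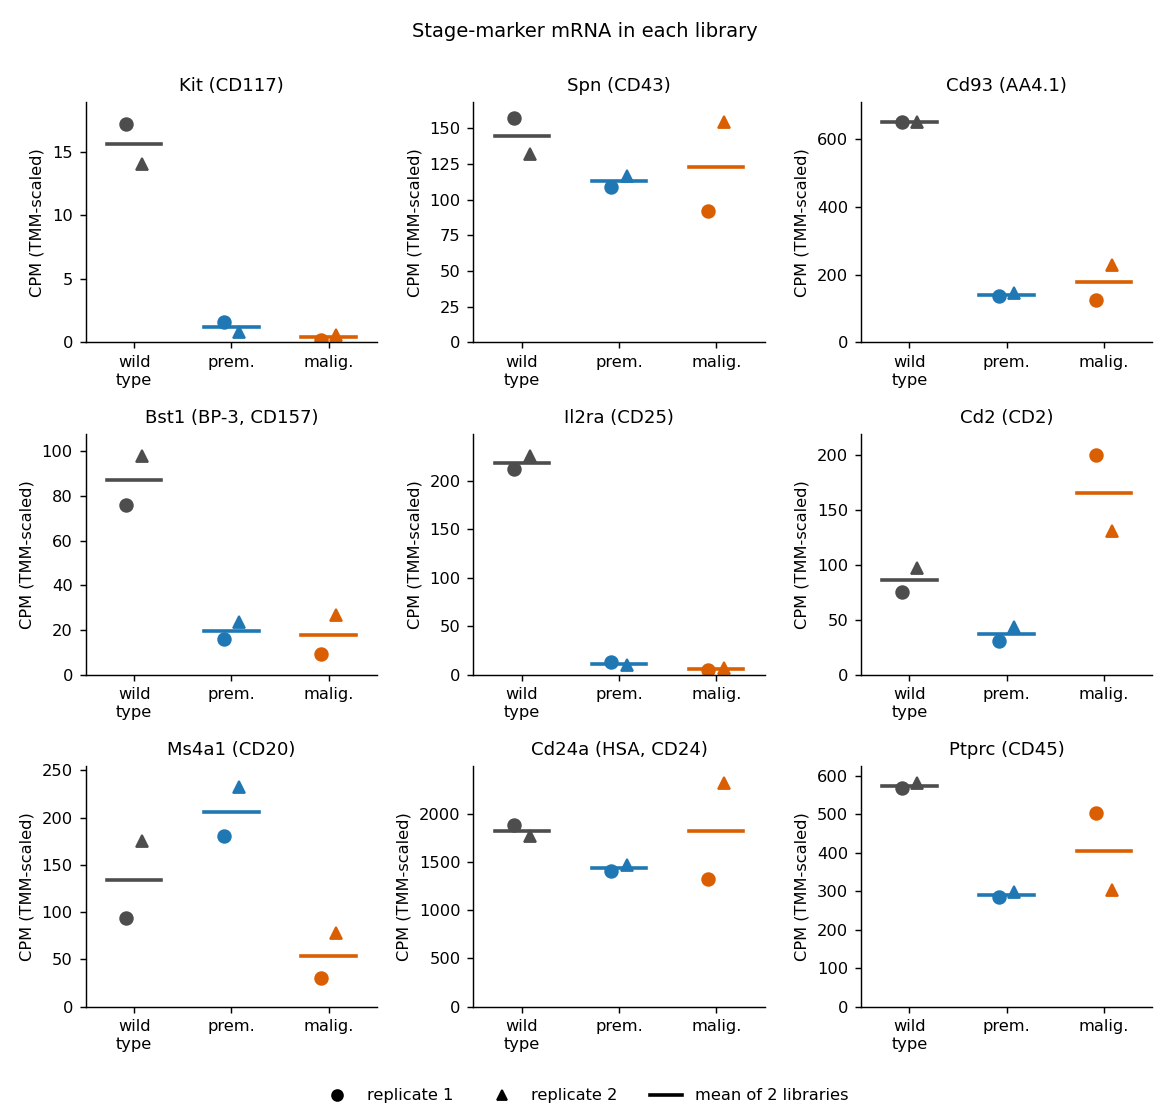
Normalised level (CPM after TMM scaling, linear axes from 0) of each stage marker in wild-type, premalignant (prem.) and malignant (malig.) libraries; circles are replicate 1, triangles replicate 2 and lines the mean of 2 libraries. Kit, Il2ra, Cd93 and Bst1 sit far above the other groups in wild type, while Cd2 is lowest in premalignant and highest in malignant cells.

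In premalignant cells most of the stage markers were lower than in wild type. Kit, Cd93, Bst1, Il2ra, Cd2 and Ptprc fell, and Spn, Ms4a1 and Cd24a did not pass the test. So 6 of 9 were called, all lower, where 39.3% of all genes tested were called, 20.3% lower and 19% higher. The libraries of both groups did not overlap for 9 of 9 markers, and for 77.4% of all genes. The median log2 fold change of the 9 was -1.23, against -0.08 over all genes tested.

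In malignant cells 5 of the 9 markers were called lower than in wild type and 1 was called higher. Kit, Cd93, Bst1, Il2ra and Ms4a1 fell and Cd2 rose, while Spn, Cd24a and Ptprc did not pass. So 6 of 9 were called, where 49.2% of all genes were called, 24.3% lower and 24.9% higher. The libraries did not overlap for 7 of 9 markers, and for 71.7% of all genes. The median of the 9 was -1.31, against -0.02 over all genes.

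Between malignant and premalignant cells Cd2 was the marker that passed, and it was called higher. That is 1 of 9 markers, where 6.18% of all genes were called, 3.73% higher and 2.45% lower. The other 8 did not pass. The libraries did not overlap for 5 of 9 markers (Cd2 and Ptprc higher, Il2ra, Kit and Ms4a1 lower), and for 51.1% of all genes. The median of the 9 was 0.12, against 0.04 over all genes. The 3 comparisons share their libraries, so their values are not independent of each other. Counts of called genes in the lists below stand beside these shares of all genes.

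**Figure D2:**
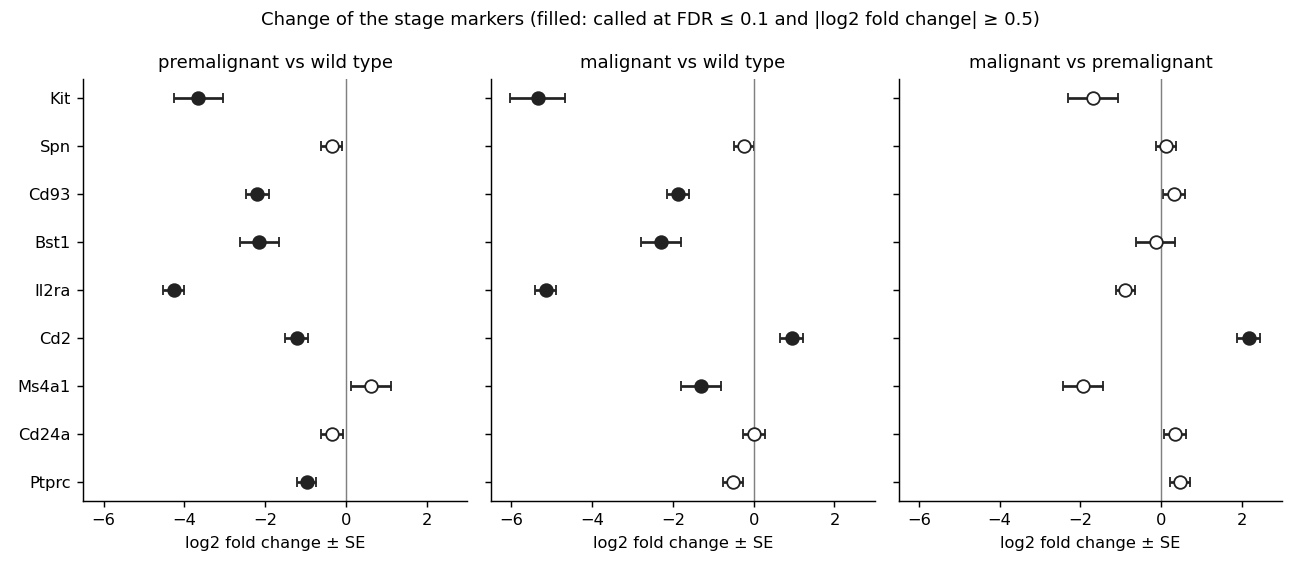
Log2 fold change of the stage markers with its standard error from the edgeR fit, in the 3 comparisons; filled points passed FDR and fold change thresholds and open points did not. Il2ra and Kit lie at -4.27 and -3.65 in premalignant vs wild type and at -5.15 and -5.35 in malignant vs wild type, and Cd2 is the filled point in malignant vs premalignant, at 2.16.

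Among the pro-B markers, Kit and Spn went apart. Kit, the receptor for stem cell factor, was at 17.2 and 14.0 CPM in wild type, at 1.64 and 0.813 CPM in premalignant and at 0.188 and 0.609 CPM in malignant cells. The groups did not overlap, and the malignant values rest on 9 and 17 counts, close to the limit of detection. Kit fell to 7.86% of wild type in premalignant cells (log2 fold change -3.65 ± 0.61 SE, adjusted p = 0.0084, n = 2 libraries per group) and to 2.56% in malignant cells (-5.35 ± 0.68, adjusted p = 0.00218). The step from premalignant to malignant did not pass (-1.69 ± 0.62, adjusted p = 0.204). Spn, the sialomucin CD43, was at 157 and 132 CPM in wild type, at 109 and 117 in premalignant and at 92.0 and 154 in malignant cells. Its malignant libraries spanned nearly the whole range of the others, and no comparison passed: the log2 fold change was -0.36 ± 0.25 in premalignant (adjusted p = 0.317) and -0.23 ± 0.25 in malignant cells (adjusted p = 0.497) against wild type. CD43 is also carried by T cells, granulocytes and activated B cells, and the part of such cells in the Spn values was not tested.

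Among genes tied to these markers, Kitl, which encodes the Kit ligand made by stromal cells, was at 0.038 to 0.333 CPM in all 6 libraries and did not pass in any comparison. Mast cells also carry Kit, and the 5 mast cell and basophil genes (Fcer1a, Mcpt8, Cpa3, Ms4a2 and Gata2) summed to 1.02 to 2.94 CPM in wild type, 0.241 to 0.286 in premalignant and 0.105 to 0.287 in malignant cells, with 2 of 3 tested called lower in premalignant and all 3 in malignant cells; Fcer1a was at 0 in 3 libraries and at most at 2 counts in the other 3. Their part in the Kit values was not tested. For Spn, Selplg, another leukocyte sialomucin, ran at 216 and 179 CPM in wild type, 112 and 117 in premalignant and 104 and 138 in malignant cells.

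Cd93 and Bst1, the markers of early precursors, fell in both Eμ-Myc groups. Cd93, a C-type lectin-like receptor, was at 650 and 650 CPM in wild type, 136 and 147 in premalignant and 125 and 229 in malignant libraries. Both groups of Eμ-Myc mice lay wholly below wild type, and the malignant pair straddled the premalignant pair. Cd93 fell to 21.8% of wild type in premalignant (-2.20 ± 0.29, adjusted p = 0.0043) and to 27.3% in malignant cells (-1.87 ± 0.28, adjusted p = 0.00385). Between malignant and premalignant cells the difference was 0.32 ± 0.27 (adjusted p = 0.582).

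Bst1 encodes an ADP-ribosyl cyclase anchored in the membrane by a lipid. It was at 76.2 and 98.1 CPM in wild type, 16.0 and 23.4 in premalignant and 9.31 and 26.6 in malignant libraries. The malignant libraries lay on either side of the premalignant ones and differed 2.86-fold from each other. Bst1 fell to 22.6% of wild type in premalignant (-2.15 ± 0.49, adjusted p = 0.0219) and to 20.6% in malignant cells (-2.29 ± 0.50, adjusted p = 0.0127), and the difference between them was -0.14 ± 0.48 (adjusted p = 0.916). The premalignant call was lost when wild type replicate 2 or either premalignant library was left out, with a log2 fold change between -2.43 and -1.89 when any 1 library was left out.

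Cd38, the other ADP-ribosyl cyclase of this family and a neighbour of Bst1 in the genome, followed another course. It was at 201 and 232 CPM in wild type, 29.9 and 37.4 in premalignant and 128 and 81.8 in malignant libraries, with no overlap between the groups. Cd38 fell in premalignant (-2.69 ± 0.26, adjusted p = 0.00224) and in malignant cells (-1.04 ± 0.24, adjusted p = 0.0161) and was higher in malignant than in premalignant cells (1.64 ± 0.25, adjusted p = 0.0334). Whether the course of Cd38 differs from that of Bst1 was not tested.

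Both Cd93 and Bst1 are carried by myeloid cells too. The 10 myeloid genes (among them Lyz2, Itgam, Mpo, S100a8 and S100a9) summed to 780 and 1711 CPM in wild type, 233 to 250 in premalignant and 55.8 to 114 in malignant libraries, and 9 of 10 were called lower in premalignant and 8 of 10 in malignant cells. None of the 10 was at 0 in any library. Within wild type this sum differed 2.19-fold between libraries, Cd93 1.00-fold and Bst1 1.29-fold. Bst1 had the same order as the myeloid sum within every group, and Cd93 within the premalignant and the malignant group. The part of myeloid cells in the values of Cd93 and Bst1 was not tested.

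Il2ra, which encodes the α chain of the IL-2 receptor and marks the normal pre-B cell, fell furthest of the 9 in premalignant cells. It was at 212 and 225 CPM in wild type, 13.1 and 9.61 in premalignant and 5.06 and 7.31 in malignant libraries. The wild-type libraries were within 1.06-fold of each other, and no library of the other groups came near them. Il2ra fell to 5.18% of wild type in premalignant (-4.27 ± 0.25, adjusted p = 0.00147) and to 2.83% in malignant cells (-5.15 ± 0.27, adjusted p = 0.000526). The malignant libraries lay below the premalignant ones, but the difference did not pass (-0.89 ± 0.23, adjusted p = 0.115).

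The IL-2 receptor chains differed in how much they changed. Il2rb, the β chain, was at 77.4 and 31.1 CPM in wild type, 4.65 and 1.27 in premalignant and 0.879 and 1.72 in malignant libraries, a log2 fold change of -4.18 ± 0.77 in premalignant (adjusted p = 0.0114) and of -5.41 ± 0.83 in malignant cells (adjusted p = 0.004). Il2rg, the γ chain that the receptors for IL-7 and other cytokines share, was at 51.3 and 64.3 CPM in wild type, 30.1 and 36.5 in premalignant and 37.5 and 47.8 in malignant libraries. Il2rg fell by 0.79 in premalignant (SE 0.20, adjusted p = 0.0307) and did not pass in malignant cells (-0.44 ± 0.20, adjusted p = 0.129). Il2 itself had 1 or 2 counts in each of the 6 libraries.

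T cells and NK cells also carry IL-2 receptor chains. The 7 T-cell genes summed to 49.8 to 94.6 CPM in wild type, 17.1 to 35.2 in premalignant and 2.07 to 17.1 in malignant libraries, with 4 of 7 called lower in premalignant and 5 of 7 in malignant cells, and Cd3e was at 0 in premalignant replicate 2. The 4 NK-cell genes (Ncr1, Klrb1c, Gzma and Eomes) summed to 177 and 51.1 CPM in wild type replicates 1 and 2, 2.23 to 9.17 in premalignant and 0.816 to 2.08 in malignant libraries, and all 4 were called lower in both. Within wild type the NK sum differed 3.47-fold and the T-cell sum 1.90-fold between libraries. Il2rb had the same order as these sums there, and Il2ra was slightly higher in the library where they were lower. Within the premalignant and within the malignant group, both Il2ra and Il2rb had the same order as these sums. The part of T and NK cells in the Il2ra and Il2rb values was not tested.

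Cd2, an adhesion receptor that B-lineage cells first show at the pre-B stage and keep, changed in opposite directions in the Eμ-Myc groups. It was at 75.3 and 97.1 CPM in wild type, 30.4 and 43.4 in premalignant and 200 and 130 in malignant libraries. The groups did not overlap, with the premalignant libraries lowest and the malignant libraries highest. Cd2 fell to 42.8% of wild type in premalignant cells (-1.23 ± 0.28, adjusted p = 0.0217), rose to 191% of wild type in malignant cells (0.94 ± 0.28, adjusted p = 0.0356) and was 4.47-fold higher in malignant than in premalignant cells (2.16 ± 0.29, adjusted p = 0.0253). With either premalignant library left out, no gene passed in that last comparison by edgeR, although 1472 and 1777 genes had an unadjusted p under 0.05 and DESeq2 called 659 and 858; the log2 fold change of Cd2 was then 1.92 and 2.44. The fall in premalignant cells was lost without wild type replicate 2 or premalignant replicate 1 (-1.03 and -0.98), and the rise in malignant cells without wild type replicate 1 (0.77) and with total counts in place of TMM.

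Cd48, which encodes the ligand of CD2 in the mouse, was level, at 98.4 and 84.9 CPM in wild type, 91.4 and 103 in premalignant and 92.3 and 80.3 in malignant libraries. Its log2 fold change against wild type was 0.08 ± 0.15 in premalignant (adjusted p = 0.704) and -0.09 ± 0.15 in malignant cells (adjusted p = 0.683). Cd244, the other receptor for CD48, was at 16.0 and 12.1 CPM in wild type, 7.03 and 6.45 in premalignant and 28.8 and 11.9 in malignant libraries, and no comparison passed. T and NK cells also carry CD2; the T-cell sum was 17.1 CPM in premalignant replicate 2 and 2.07 and 17.1 CPM in the malignant libraries, and the other sums are given above. Their part in the Cd2 values was not tested.

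Ms4a1, which encodes CD20 and normally comes up as B cells mature, differed 1.88-fold between the wild-type libraries, the widest of the 9 in that group, and 2.61-fold between the malignant ones. It was at 93.4 and 175 CPM in wild type, 180 and 232 in premalignant and 30.0 and 78.3 in malignant libraries. Both malignant libraries lay below the others and both premalignant libraries above the others, though by little between 175 and 180 CPM. Ms4a1 fell to 40.3% of wild type in malignant cells (-1.31 ± 0.49, adjusted p = 0.074), and neither the difference between premalignant and wild type (0.62 ± 0.48, adjusted p = 0.367) nor that between malignant and premalignant cells (-1.93 ± 0.50, adjusted p = 0.112) passed. The call in malignant cells did not hold at an FDR of 0.05, in a fit of only the groups compared, or without wild type replicate 2, either premalignant library or malignant replicate 1 (log2 fold change between -2.13 and -0.77 when any 1 library was left out).

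Other genes of the Ms4a family were lower in both Eμ-Myc groups. Ms4a4b, Ms4a4c, Ms4a6b and Ms4a6c, which T, NK and myeloid cells carry, fell in both, with log2 fold changes of -3.81, -1.76, -2.48 and -2.97 in premalignant cells and of -4.37, -2.90, -1.31 and -2.45 in malignant cells. Ms4a4b was at 54.3 and 17.8 CPM in wild type replicates 1 and 2, the same order as the NK and T-cell sums. The part of these cells in that fall was not tested.

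Cd24a and Ptprc are present throughout development, and of their comparisons only the fall of Ptprc in premalignant cells passed. Cd24a, a glycoprotein anchored by a lipid, was at 1879 and 1768 CPM in wild type, 1409 and 1471 in premalignant and 1326 and 2324 in malignant libraries. The malignant libraries lay below and above all others, and no comparison passed: the log2 fold change was -0.34 ± 0.27 in premalignant (adjusted p = 0.371) and 0.00 ± 0.27 in malignant cells (adjusted p = 0.998) against wild type. These counts carry the uncertainty of the copied stretches printed above.

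Ptprc encodes CD45, a tyrosine phosphatase of all leukocytes. Its B220 form was 1 of the sorting antigens, so its level is not independent of the gate, and counts per gene do not tell the spliced forms apart. It was at 568 and 580 CPM in wild type, 285 and 297 in premalignant and 504 and 302 in malignant libraries. Wild type was highest, and malignant replicate 2 lay next to the premalignant pair while malignant replicate 1 lay nearer to wild type. Ptprc fell by 0.98 in premalignant cells (SE 0.24, adjusted p = 0.0285), a call lost when any 1 wild-type or premalignant library was left out (adjusted p between 0.103 and 0.173), and did not pass in malignant cells (-0.51 ± 0.24, adjusted p = 0.139).

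Ighm, the IgM heavy chain gene and another part of the gate, was at 4781 and 6087 CPM in wild type, 2699 and 3049 in premalignant and 2379 and 4058 in malignant libraries and was called lower in both against wild type. Around CD45, Ptprcap, which encodes a protein bound to it, fell by 0.75 in malignant cells (SE 0.13, adjusted p = 0.00576) and was under the fold threshold in premalignant cells (-0.39 ± 0.13, adjusted p = 0.0623). Lyn, a Src-family kinase that CD45 acts on, fell by 1.13 in premalignant (SE 0.16, adjusted p = 0.00504) and by 1.33 in malignant cells (SE 0.16, adjusted p = 0.0018). Hnrnpll, which regulates the splicing of Ptprc, was at 3.26 and 3.37 CPM in wild type, 0.629 and 0.512 in premalignant and 0.0837 and 0.359 in malignant libraries, and the malignant values rest on 4 and 10 counts. The list of 18 tested partners and relatives of the 9 markers had 13 called lower in premalignant cells (median -1.63) and 11 in malignant cells (median -1.15) against wild type. Of all genes tested, 20.3% and 24.3% were called lower there. In this list 1 gene, Ms4a6b, was called higher in malignant than in premalignant cells, where 3.73% of all genes were.

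**Figure D3:**
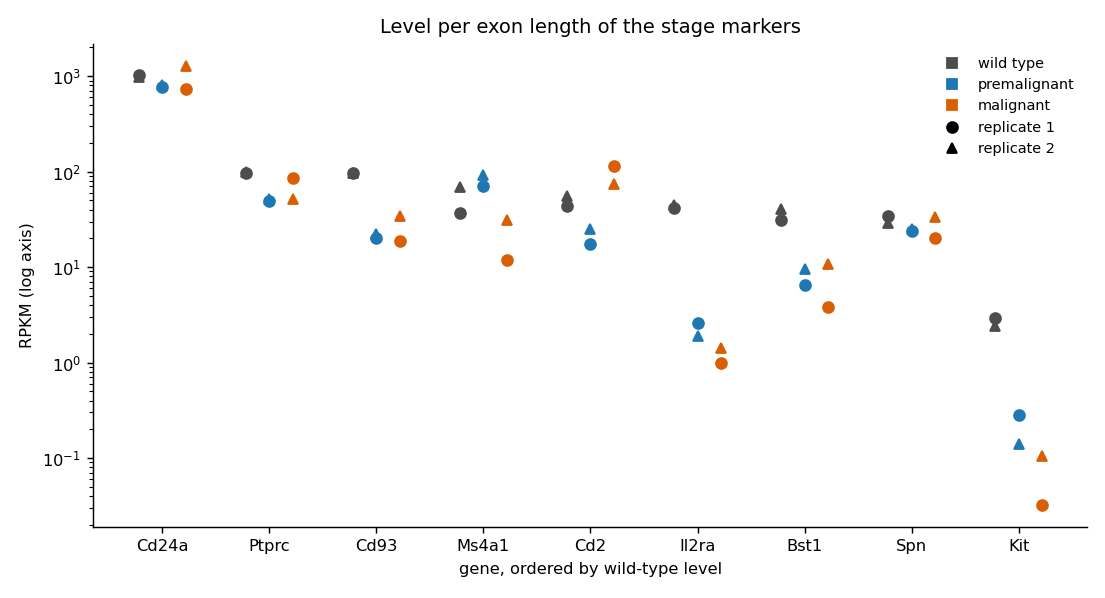
Level of the stage markers per kilobase of exon (RPKM, log axis), ordered by the wild-type mean; circles are replicate 1 and triangles replicate 2. Cd24a is the highest and Kit the lowest in all 6 libraries, while Il2ra drops from 41.7 and 44.3 RPKM in wild type to 0.994 and 1.44 RPKM in malignant libraries.

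Set per length of exon (RPKM), the markers kept their ends but not their middle order. Cd24a was the highest of the 9 in all 6 libraries, at 731 to 1282 RPKM, and Kit the lowest, at 2.41 and 2.94 RPKM in wild type and 0.0323 and 0.105 RPKM in malignant cells. In wild type Ptprc (97.6 and 99.7 RPKM) and Cd93 (97.3 in both) came next and were alike within the spread of the libraries, and Cd2, Ms4a1, Il2ra, Bst1 and Spn lay between 28.7 and 69.4 RPKM with overlapping pairs. Ms4a1 was second in both premalignant libraries (71.4 and 91.9 RPKM) and Cd2 second in both malignant libraries (115 and 74.9 RPKM). Il2ra moved from the middle to the eighth rank, at 2.57 and 1.89 RPKM in premalignant cells, where Kit was at 0.281 and 0.139 RPKM.

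Genes with the most similar course over the 6 libraries were found by the root-mean-square distance between log2 values, each centred on its own mean, among 12647 genes with a symbol and a mean of at least 1 CPM. For Il2ra they were Mmrn1 (distance 0.10), Klra1 (0.13) and Scn4b (0.18), for Kit Gab1 (0.12), Oasl2 (0.17) and Gab2 (0.20), and for Cd2 Cxcr5, the chemokine receptor of B-cell follicles (0.18), Afap1 (0.18) and Myadm (0.21). Those values are small beside the markers' own spread around their means, which was 2.22 for Il2ra, 1.82 for Kit and 0.91 for Cd2. The nearest genes were Tle2, Gpr183 and Mx2 for Cd93, Ptger4, Itgam and Lrp1 for Bst1, and Ccnyl1 and Fbxl17 for Ptprc. For Spn they were Rps6ka5, Osbpl11 and Hmox2 and for Cd24a Mtmr14, Cdc42se1 and Derl1, both markers with little spread, while Ms4a1 had no close match, with Mtus2, Tanc2 and Gatm at 0.30 to 0.31. With 6 libraries in 3 groups many genes share a course, and the distance is a description.

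Lists of stage genes were also read in the same cells. The 5 genes of the pro-B list were Dntt, the enzyme that adds bases at gene joins, Igll1, Vpreb1 and Vpreb2 of the surrogate light chain, and Erg. Large pre-B cells also carry the surrogate light chain, and how closely this list marks the pro-B stage was not tested. The 5 genes summed to 643 and 625 CPM in wild type, 53.9 and 28.2 in premalignant and 0.46 and 20.5 in malignant libraries. All 5 fell in premalignant (median -4.06) and in malignant cells (median -6.00), and malignant replicate 1 was 44.6-fold below malignant replicate 2. The largest fall among the listed surface, partner and stage genes was that of Vpreb2, with -5.28 ± 1.03 in premalignant (adjusted p = 0.0135) and -6.88 ± 1.16 in malignant cells (adjusted p = 0.00549), where it was at 0 in replicate 1 and at 8 counts in replicate 2. Dntt fell by 6.23 in malignant cells (SE 1.38, adjusted p = 0.0137). Erg had a log2 fold change of -4.19 ± 1.06 in premalignant (adjusted p = 0.0295) and of -6.00 ± 1.19 in malignant cells (adjusted p = 0.00948). In the malignant libraries Kit had the same order as the pro-B sum, 0.188 against 0.609 CPM.

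The genes of small pre-B cells were also lower. Their 5 genes (Rag1, Rag2, Ikzf3, Irf4 and Spib) summed to 4717 to 4741 CPM in wild type, 1724 to 1762 in premalignant and 1028 to 1228 in malignant libraries, with 4 of 5 called lower in each. Of these, Spib, a transcription factor, was also called lower in malignant than in premalignant cells (-0.92 ± 0.14, adjusted p = 0.0348). The genes of dividing cells went the other way in premalignant cells, where Aurkb (1.00 ± 0.19, adjusted p = 0.0122), Ccnb1 (0.73 ± 0.24, adjusted p = 0.0646) and Mki67 (0.66 ± 0.24, adjusted p = 0.085) rose and Top2a and Birc5 did not pass. In malignant cells 1 of these 5 was called higher against wild type. Of the 4 measured genes listed for the immature stage (Ms4a1, Fcer2a, Cr2 and Ccr7) 2 were called lower in premalignant and 3 in malignant cells. The shares of all genes called lower were 20.3% and 24.3%. Fcer2a and Cr2 were at 4.33 CPM or less in every library. Ms4a1 is 1 of the 9 markers, and Fcer2a and Cr2 are also among the other surface proteins counted below. How closely these genes mark the immature stage was not tested.

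**Figure D4:**
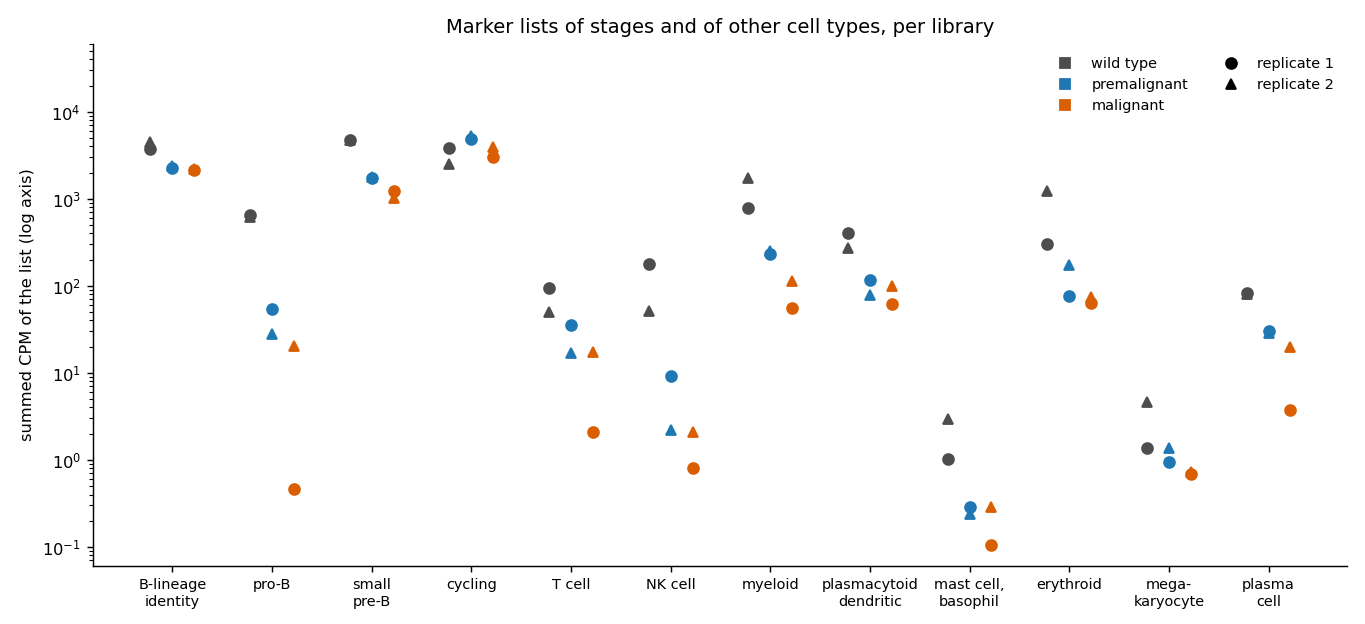
Summed CPM (log axis) of genes that mark B-lineage identity, stages of B-cell development and other cell types, in each library; circles are replicate 1 and triangles replicate 2. The pro-B sum drops from 643 and 625 CPM in wild type to 0.46 CPM in malignant replicate 1. The T-cell, NK, myeloid, plasmacytoid dendritic, mast cell and basophil, erythroid and plasma cell sums also drop from wild type to the other groups. The plasmacytoid dendritic sum was 407 and 272 CPM in wild type, 115 and 77.7 in premalignant and 61.7 and 99.0 in malignant libraries. The erythroid sum was 303 and 1233, 77.1 and 174, and 63.3 and 74.8 CPM.

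Across 33 other surface proteins of the B lineage, taken as 1 list, most were lower than in wild type. In premalignant cells 25 of 33 were called lower and the other 8 did not pass, with a median of -1.34. In malignant cells 22 were called lower and 5 higher, with a median of -1.40, and between malignant and premalignant cells 4 were called higher and 2 lower (median 0.11). These counts stand beside the shares of all genes given above.

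Among receptors and coreceptors on this list, Il7r, Cd72 and Cd69 were called lower than in wild type in both Eμ-Myc groups. Il7r, the receptor for the cytokine that precursor B cells grow on, was at 495 and 397 CPM in wild type, 100 and 71.5 in premalignant and 29.5 and 41.7 in malignant libraries, falling against wild type in both and further from premalignant to malignant (-1.27 ± 0.25, adjusted p = 0.0608). Cd72, an inhibitory coreceptor, did the same, with 512 and 725 CPM in wild type, 299 and 250 in premalignant and 98.6 and 110 in malignant libraries (-1.40 ± 0.21 between the last groups, adjusted p = 0.0322). Cd69, an early activation marker, fell by 4.74 in premalignant cells (SE 0.73, adjusted p = 0.00684), from 26.7 and 120 CPM in wild type to 2.29 and 3.22.

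In malignant cells 5 of the 33 surface genes were called higher than in wild type, where 24.9% of all genes were called higher. Fcgr2b, the inhibitory Fc receptor, was at 61.8 and 66.7 CPM in wild type, 35.1 and 35.9 in premalignant and 275 and 163 in malignant libraries, and Cd86, a costimulatory ligand, at 3.40 and 3.68, 2.5 and 3.86, and 21.0 and 15.4 CPM. Fcgr2b rose by 1.77 over wild type (SE 0.25, adjusted p = 0.00314) and by 2.62 over premalignant cells (SE 0.26, adjusted p = 0.0148). Cd86 rose by 2.36 (SE 0.33, adjusted p = 0.00312) and by 2.52 (SE 0.34, adjusted p = 0.0254). Cd22, an inhibitory coreceptor, rose by 0.90 over wild type (SE 0.23, adjusted p = 0.0232), and Cd55 and Cd81 were the other 2 called higher. Myeloid cells also carry Fcgr2b and Cd86; the myeloid sum is given above, and its part in these values was not tested.

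Enpep, which encodes BP-1, another marker used with BP-3 and named here after its values were seen, did not pass in any comparison. It was at 19.9 and 18.9 CPM in wild type, 8.31 and 7.80 in premalignant and 5.95 CPM in malignant replicate 2, and at 0 counts in malignant replicate 1. Malignant replicate 1 was the lower library for Enpep, as for Kit, Bst1 and the pro-B sum. It was also the lower for Spn, Cd93, Il2ra, Ms4a1, Cd24a and the T-cell, NK and myeloid sums, and the higher for Cd2 and Ptprc.

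**Figure D5:**
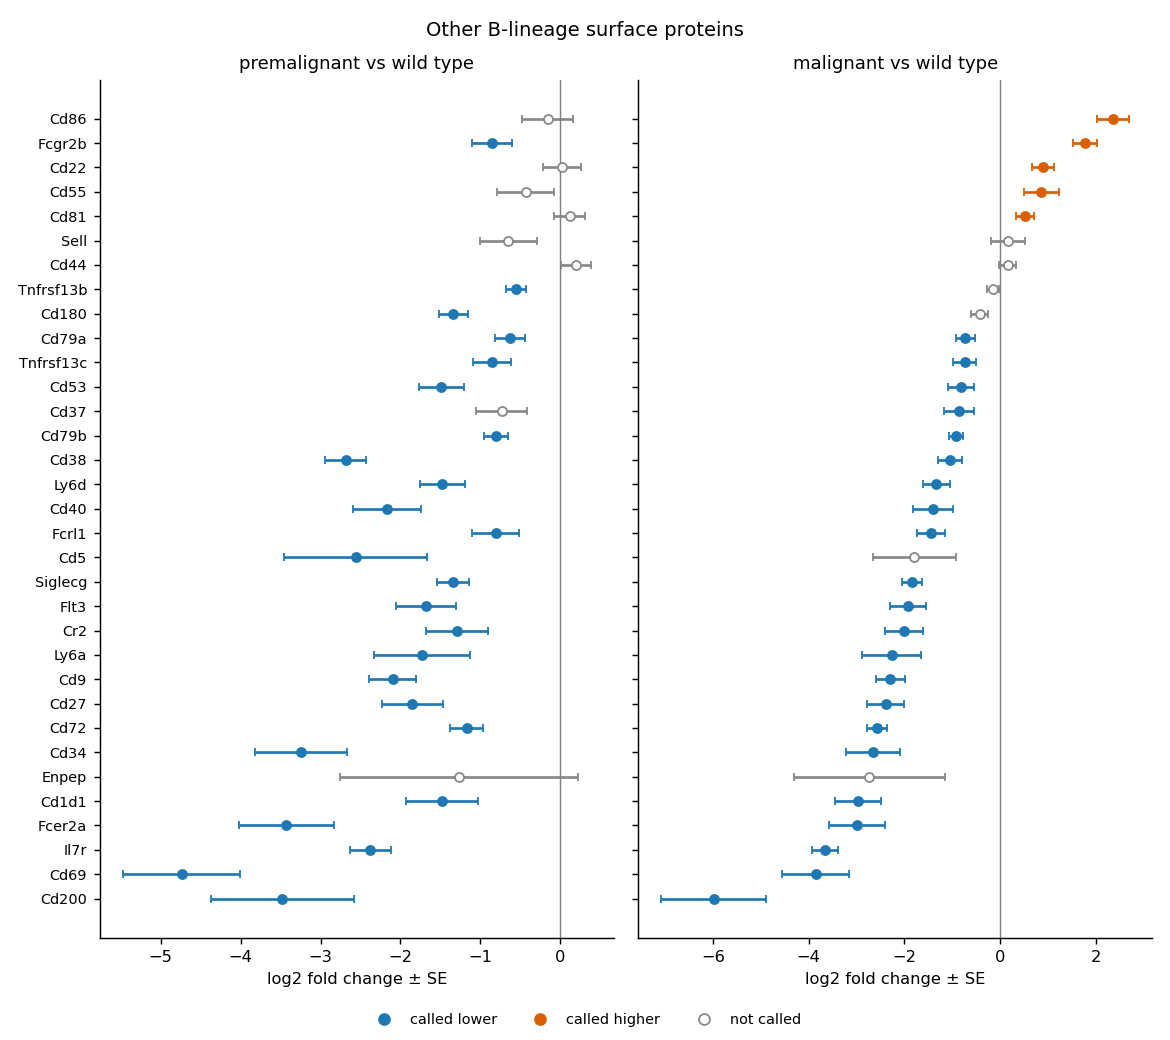
Log2 fold change with its standard error from the edgeR fit for 33 other surface proteins of the B lineage against wild type; blue points were called lower, orange points higher, and open points were not called. In premalignant cells 25 lie among the called lower, and in malignant cells 22 were called lower and 5, led by Cd86 at 2.36, higher.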

How the data were processed

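RNA-seq counts of 6 libraries were used. The authors aligned 50-bp reads with TopHat, counted reads per Ensembl gene with HTSeq and deposited these raw counts; the submitters' processing notes name CASAVA 1.8.2, Bowtie, HTSeq, DESeq and mm9. The HTSeq options, and so the treatment of reads that fit several places, are not given in the sources used here. Deposited tables of the authors' own DESeq comparisons were not used. Symbols, exon lengths and coordinates come from GENCODE vM1 (NCBIM37), which named 37205 identifiers and not the other 786; Ighd was not matched. Counts were fitted with edgeR 4.0.16 (R 4.3.3), all 6 libraries in 1 model, TMM scaling and the default filter on low counts; DESeq2 1.42.0 was an alternative. TMM takes most genes as unchanged, and no spike-in was used, so a change in total RNA per cell would not be seen. The standard error comes from the fold change and the F statistic. The fits were tested on simulated data. CPM use TMM-scaled totals, RPKM divides them by exon length, and a pseudocount of 0.5 CPM was added before log2 for the search of similar genes. With 2 libraries a group, the spread used for each p-value was estimated from few animals, and the 3 groups shared that estimate. Counting floors cover counting error only. Named genes were the 9 markers, listed genes with a direct tie to a marker, and in each comparison the 3 called list genes that rose most and the 3 that fell most. The markers and lists were chosen with earlier results of these data known. Some listed genes are not reported here.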

Additional observations from a re-analysis of the deposited data

How the results depend on the processing

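Over 15 alternatives for the 9 markers in 3 comparisons, 348 of 405 fold changes kept direction and call, 19 lost a call, 25 gained one and 13 changed sign. Il2ra, Kit and Cd93 kept their calls against wild type under all 15 in both comparisons, as did Bst1 in malignant cells. For Cd24a in malignant vs wild type the log2 fold change was 0.00 and became -0.0058 with DESeq2's size factors in edgeR, -0.17 with upper-quartile scaling, -0.0020 with DESeq2, -0.039 with the replicate block and -0.29 with total counts, an alternative chosen after seeing the data. Leaving out 1 library at a time gave -0.44 to 0.36 for it and -0.63 to 0.10 for Spn, and in malignant vs premalignant -1.11 to 0.43 for Bst1, -0.33 to 0.45 for Spn, -0.15 to 0.69 for Cd24a and -0.21 to 0.69 for Cd93. The cause was not tested.

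Called genes ranged from 2094 to 8455 in premalignant vs wild type, 5945 to 9200 in malignant vs wild type and 0 to 3805 in malignant vs premalignant when 1 library was left out. Called markers ranged from 3 to 7, 5 to 7 and 0 to 6, and other surface proteins from 10 to 28, 21 to 27 and 0 to 13. The zeros are edgeR without either premalignant library, where 2 and 4 markers had an unadjusted p under 0.05 and DESeq2 called 2 and 4; with malignant replicate 1 or 2 left out, 4 and 6 markers were called. In malignant vs premalignant, upper-quartile scaling called 2 markers. DESeq2 called 2169 genes, 4 markers and 10 surface proteins, no filter on low counts 2810, 4 and 14, a fit of only those groups 258 genes and 3 surface proteins, and an FDR of 0.05 407 genes. With DESeq2 and with no filter, the 4 markers were Cd2 (higher) and Il2ra, Kit and Ms4a1 (lower).

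The share of called genes that were higher was 48.3%, 50.6% and 60.4% in the 3 comparisons in that order, 33.6%, 35.5% and 50.6% with total counts and 42.5%, 42.1% and 49.7% with upper-quartile scaling. Total counts moved the median of all genes by -0.21, -0.30 and -0.084 and upper-quartile scaling by -0.085, -0.17 and -0.081. Ptprc in malignant vs wild type was called lower under both, and the rise of Cd2 there was not called with total counts.

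The replicate numbers are shared by the groups but nothing says that they pair animals, and the correlation across genes of the deviations of same-numbered libraries was 0.41 for wild type and premalignant, 0.057 for wild type and malignant and 0.13 for premalignant and malignant. With the number as a block, 6575, 8224 and 940 genes, 7, 6 and 2 markers and 24, 28 and 7 surface proteins were called in the 3 comparisons; Ms4a1 was the marker added in premalignant vs wild type (higher) and in malignant vs premalignant (lower). Depth limits Kit most, with 9 and 17 counts in the malignant libraries.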
